A study of Mus musculus with 30 samples.

Results

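The interferon-stimulated genes were examined here as one module in sorted luminal and basal cells of the mouse mammary gland (MG). The module was set as a list of 45 genes, and its members were those of the list with a row in the table of normalised counts. Of the 45 genes, 41 had a row among the 11137 genes of the table, whereas the sensors Dhx58 and Zbp1 and the effectors Ifit3 and Oas1a had none. By role, the 41 members were 4 receptors, 5 transcription factors, 2 nucleic acid sensors, 10 antiviral effectors, 8 enzymes of the ISG15, ubiquitin and ADP-ribose systems with their substrate Isg15, 3 guanylate-binding proteins and 9 other induced genes.

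Type I and type III interferons signal through JAK kinases to a complex that contains STAT2 and IRF9 and binds the interferon-stimulated response element (ISRE). Interferon gamma acts through the gamma-activated site (GAS), with IRF1 as an early target that then acts on further genes. Many of these genes are also transcribed at a low level without infection, and some respond to NF-κB or to IRF3 alone.

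Libraries were made by 3′ mRNA sequencing (QuantSeq) from cells sorted by CD24 and CD49f after removal of CD45+ and CD31+ cells. K8imTmG mice carry K8rta, TETO CRE and mTmG, that is a doxycycline-induced Cre recombinase driven from the Krt8 promoter and a reporter that turns from tdTomato to GFP where Cre has acted. K8iΔRank mice carry in addition RANK fl/fl, so that Rank is targeted in luminal cells while basal cells of the same mice keep it. All mice, controls included, received doxycycline at 1 mg/ml, which the labels give as week 3 to week 8 of age. Virgin MGs and parous MGs, the latter collected after involution, were compared. By the paper's methods, control mice nursed until their pups were removed, whereas K8iΔRank mice failed to lactate and were kept for an interval that simulated involution. The parous groups of the genotypes therefore also differ in lactation history, and its part in the comparisons below was not tested. Luminal libraries came from 3 virgin K8imTmG, 3 virgin K8iΔRank, 5 parous K8imTmG and 4 parous K8iΔRank mice, and basal libraries from 3, 4, 4 and 4 mice of the same groups. The 30 libraries came from 17 mice, 13 of which gave both lineages, and each library was 1 mouse.

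The libraries held 340445 to 3130419 reads after removal of duplicates by molecular identifiers, so that 1 read was worth 0.381 to 5.43 normalised counts. The basal libraries of virgin K8imTmG mice 538 and 568 were shallow, with 437873 and 340445 reads, and listed 2 and 7 of the 41 members at 0. The luminal keratins Krt8, Krt18 and Krt19 summed to 2181 to 7035 normalised counts in luminal libraries and to 304 to 1079 in basal libraries. The basal markers Krt5, Krt14, Acta2 and Trp63 summed to 20.1 to 175 in luminal and to 5043 to 9971 in basal libraries. Of 17 leukocyte markers only Cd68, C1qa and Lyz2 were in the table, the defining marker Ptprc was not listed, and their sum was 9.59 to 34.6 in luminal and 17.4 to 149 in basal libraries. The 5 endothelial markers listed summed to 5.04 to 39.7 in luminal and to 47.8 to 814 in basal libraries, and the 6 fibroblast markers to 89.1 to 953 and to 501 to 907. In sorted bulk cells, fewer cells of a type and less RNA per cell cannot be told apart.

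A second partition of the libraries touches several results. The lectin gene Clec2d was at 65.6 to 199 normalised counts in 14 libraries and at 0.641 to 8.68 in the other 16. The split went with depth in luminal cells, where Clec2d-high libraries held 534445 to 1158036 reads and Clec2d-low ones 1862812 to 3130419. In basal cells the ranges overlapped, at 340445 to 2677273 and 1200781 to 2996649 reads. All luminal virgin K8imTmG, luminal parous K8iΔRank and basal virgin K8iΔRank libraries were Clec2d-low, and all luminal virgin K8iΔRank, basal virgin K8imTmG and basal parous K8imTmG libraries were Clec2d-high. The luminal parous K8imTmG group had mice 494 and 557 on the high side and 3 on the low side, and the basal parous K8iΔRank group had mice 794 and 830 on the high side and 787 and 798 on the low side. For the genotype comparison in virgin luminal cells, the genotype comparison in virgin basal cells and the parity comparison in K8iΔRank luminal cells, the labelled groups and the sides of this split therefore cannot be told apart. Rank itself (Tnfrsf11a) did not mark the genotype in luminal cells, at 9.57 to 18.6 normalised counts in virgin K8imTmG against 11.5 to 23.8 in virgin K8iΔRank and 12.8 to 64.9 in parous K8imTmG against 27.0 to 41.1 in parous K8iΔRank. Reads of this kit lie at the 3′ end of the transcript and need not cover the deleted part, so genotypes below are those of the labels. The paper sorted luminal cells as GFP+ and reports reduced Rank mRNA by qPCR in such cells of K8iΔRank mice.

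The ISRE and GAS motifs were searched in the promoters of the members to show the sequences through which these genes are known to respond. The window ran from 250 bases before to 50 bases after the start of the Ensembl canonical transcript (GENCODE vM39 on GRCm39), on both strands. The ISRE core, read as GAAA, any 2 bases and again GAAA, was in 15 of the 41 member promoters (36.6%), against 3.33% of the 10440 promoters of protein-coding genes in the table and 3.84% of all 21770 such promoters. The GAS core, TTCNNNGAA, was in 10 of 41 (24.4%), against 7.24% and 8.82%. Overlapping matches counted once per promoter, 4 members (Bst2, Eif2ak2, Gbp7 and Irf2) held both cores, and 20 held neither. Several genes that lead the comparisons below are among those with neither core, namely Cmpk2, Parp9, Dtx3l, Lgals3bp, Parp12, Parp14 and Sp100. Sites are shown for some of the members that hold a core, 5′ to 3′ on the strand of the gene. The core is in capitals and its first base is numbered from 1 at the transcript start, with no position 0.
Isg15: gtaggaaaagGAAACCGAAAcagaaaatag
Bst2: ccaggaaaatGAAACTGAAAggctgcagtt
Eif2ak2: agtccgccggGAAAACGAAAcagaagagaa
Rsad2: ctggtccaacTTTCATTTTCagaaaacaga
Usp18: ggatctagggGAAAACGAAAgcttggcggt
Ifit1: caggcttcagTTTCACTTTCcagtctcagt
Gbp7: tccgttttctTTCCAGGAAaagcagaagc
Irf1: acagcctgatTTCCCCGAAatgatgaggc

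The first 6 of these lines show ISRE cores and the last 2 show GAS cores. The Isg15 run lies at chr4:156285328-156285357 on the minus strand, with its core at position -44, and overlaps 2 further cores at -38 and -50. The Bst2 run (chr8:71990221-71990250, minus strand) starts its core at -126, beside another ISRE core at -132 and a GAS core at -138, and the Eif2ak2 run (chr17:79189964-79189993, minus strand) starts at 30. The Rsad2 core (chr12:26506552-26506581, minus strand) starts at -120 and the Ifit1 core (chr19:34618175-34618204, plus strand) at -86, both in the reverse orientation. The Usp18 core (chr6:121222796-121222825, plus strand) starts at -51. The GAS core of Gbp7 (chr3:142235981-142236009, plus strand) starts at -53 and that of Irf1 (chr11:53660741-53660769, plus strand) at -90. A match is a run of letters in this window and was not measured as a bound site in these cells.

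The 41 members did not move as 1 block across the libraries. After subtraction of the group means, the median Pearson correlation of 820 pairs of members over the 30 libraries was 0.07 on the log2 scale, against 0.0006 over all pairs of genes in the table, and 8.4% of member pairs exceeded 0.5 against 5.4% of all pairs. The points of each pair share library and depth. The most alike were Bst2 and Eif2ak2 at 0.83, the transcription factors Irf2 and Irf9 at 0.81, Rsad2 and Parp14 at 0.71 and Irf7 and the sensor Ifih1 at 0.71. At the other end, the receptor subunit Ifnar2 and Bst2 were at -0.72.

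**Figure D1:**
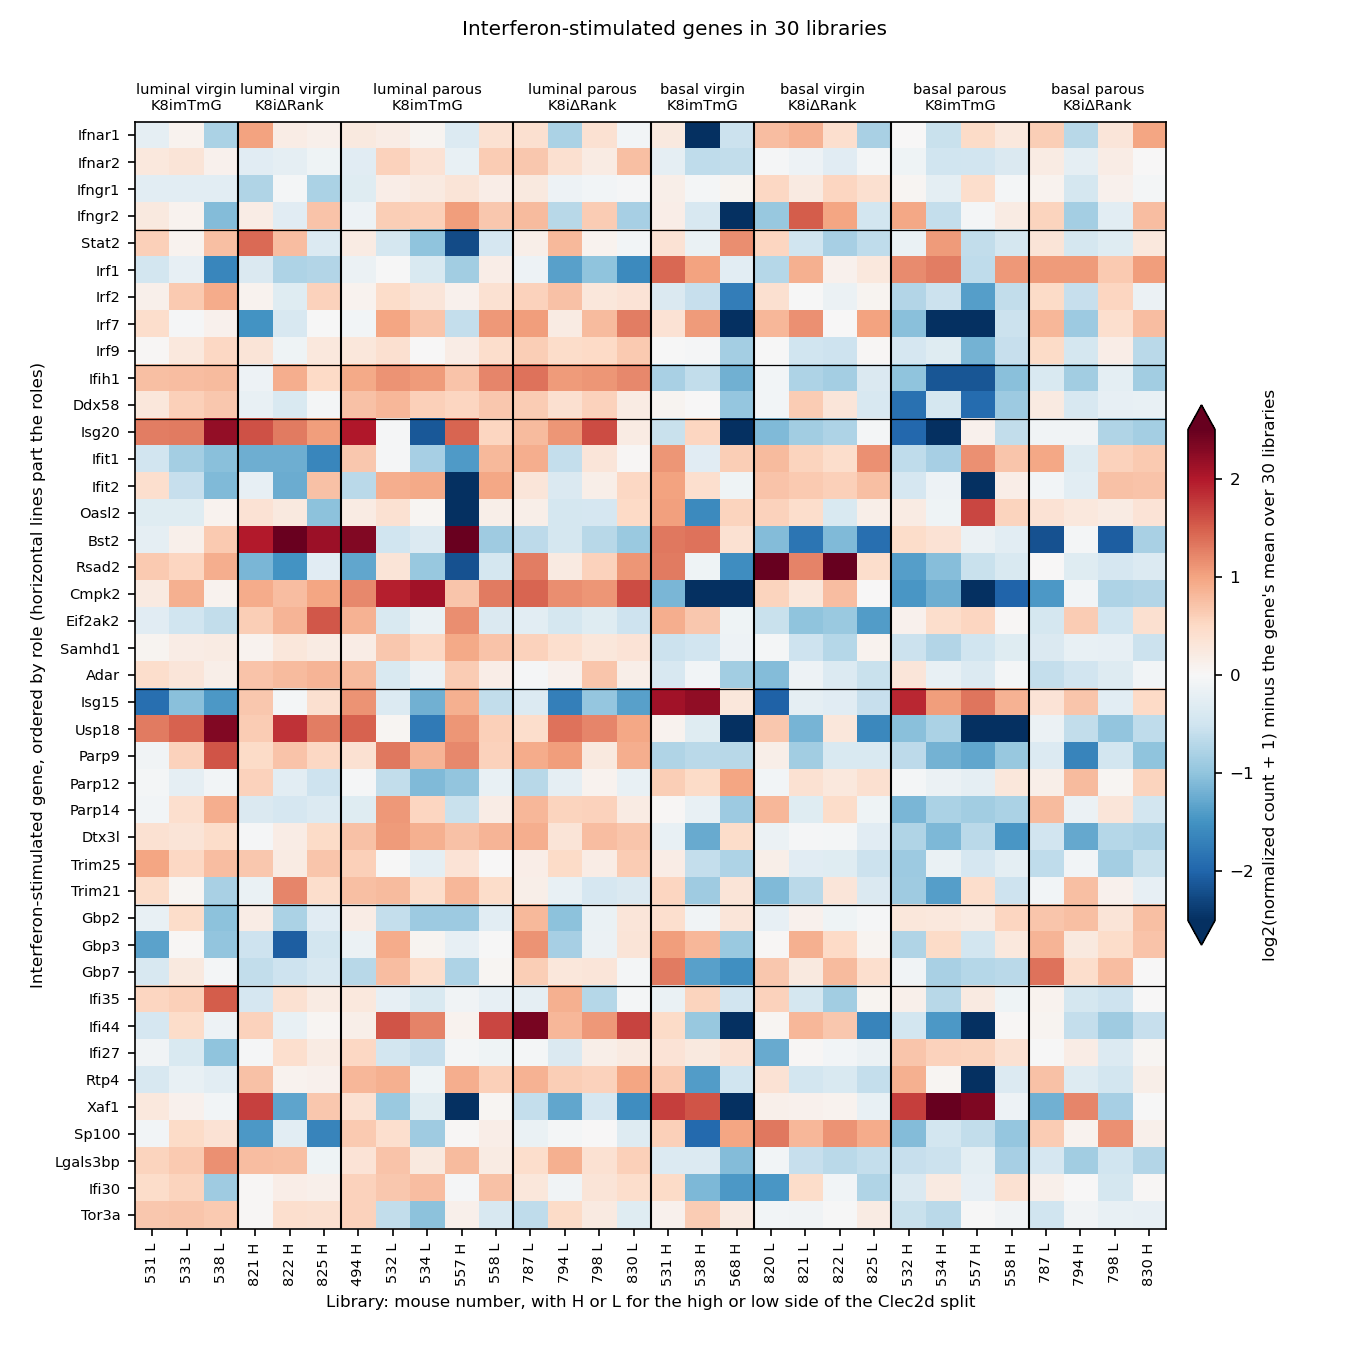
Each of the 41 interferon-stimulated genes (rows, parted by role) in each of the 30 libraries (columns, parted by group, with mouse number and side of the Clec2d split), as log2(normalised count + 1) minus the gene's mean over all libraries. Ifih1, Cmpk2, Parp9 and Usp18 are mostly above their mean in the 15 luminal libraries on the left, whereas Irf1 and Isg15 are mostly above it among the 15 basal libraries, and Bst2, Isg15 and Eif2ak2 also follow the letters H and L within both lineages.

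Members differed between luminal and basal cells in both directions. The total share called was near that of all genes, but more members were called as higher than as lower in luminal cells. On average over the conditions, both sensors, Parp9, Parp14 and Dtx3l were higher in luminal cells. On that average, Irf1, Isg15, Ifit1, Parp12 and 2 of the 3 guanylate-binding proteins were higher in basal cells. Of 41 members, 25 passed the test (limma, adjusted p below 0.05), 18 higher and 7 lower in luminal cells. A fold change above 0 was found for 27 (65.9%), against 52.2% of all genes. In the background, 55.7% of the 11133 genes tested were called, 28.7% as higher and 27% as lower. The median log2 fold change of the members was 0.42, against 0.035 over all genes tested. Fold changes are differences of log2(normalised count + 1), which understate the change of genes with low counts, and are given ± the standard error (SE). No member separated the 15 luminal from the 15 basal libraries without overlap, which 3.42% of all genes did as higher and 6.14% as lower.

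Both cytosolic RNA sensors were higher in luminal cells. Ifih1, which encodes the sensor MDA5, was at 35.3 to 101 normalised counts in luminal libraries (median 75.6) and at 7.96 to 36.9 in basal libraries (median 21.0). The ranges met only at their ends, and in all 13 mice with both lineages the luminal value was the higher one. The log2 fold change was 1.74 ± 0.14 (SE, adjusted p = 1.29e-11 with limma). Ddx58, which encodes the sensor RIG-I, rose by less, with 45.3 ± 10.3 (SD, n = 15) in luminal and 27.3 ± 11.9 (SD, n = 15) in basal libraries and a log2 fold change of 0.76 ± 0.15.

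Of the 10 antiviral effectors, 5 were higher and 1 lower in luminal cells. Cmpk2, a mitochondrial nucleotide kinase, was at 8.10 to 35.7 in luminal libraries (median 17.3) and at 0 to 13.5 in basal libraries (median 2.87), with 3 basal libraries at 0. Its log2 fold change was 2.20 ± 0.23 (SE, adjusted p = 2.75e-09 with limma), and the luminal value was higher in 12 of 13 mice. The basal K8imTmG libraries held only 0 to 2 reads of Cmpk2 each, so the size of the difference is uncertain. It was 1.46 to 2.37 under the alternatives other than leaving out a mouse. By condition it ran from 0.49 in virgin K8iΔRank to 3.39 in parous K8imTmG. The exonuclease gene Isg20 (2.02 ± 0.40), the dNTP hydrolase Samhd1 (0.72 ± 0.09), the RNA editing enzyme Adar (0.73 ± 0.14) and the membrane tether Bst2 (0.98 ± 0.29) were also called, although Bst2 was higher in luminal cells in 6 of 13 mice. For Isg20 the basal K8imTmG libraries held 0 to 6 reads each, so the size of its difference is also uncertain. Ifit1, which binds viral RNA ends, was higher in basal cells. It was at 2.64 to 20.2 in luminal (median 6.39) and at 5.35 to 23.9 in basal libraries (median 16.3), with a log2 fold change of -0.98 ± 0.25 (SE, adjusted p = 0.00149 with limma). The ranges overlapped widely, and the basal value was higher in all but 2 of 13 mice. Rsad2, the radical SAM enzyme viperin, was not called, at -0.23 ± 0.28, nor were Eif2ak2, Oasl2 and Ifit2.

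Of the 8 genes of the ISG15, ubiquitin and ADP-ribose systems, 5 were higher and 2 lower in luminal cells. Parp9 was at 75.0 to 239 in luminal (median 133) and at 24.7 to 88.9 in basal libraries (median 48.9), with a log2 fold change of 1.47 ± 0.16 (SE, adjusted p = 3.88e-09 with limma). Its partner, the ubiquitin ligase Dtx3l, was at 69.4 to 149 (median 115) and at 25.03 to 97.8 (median 43.8), with a log2 fold change of 1.10 ± 0.13 (SE, adjusted p = 3.19e-08 with limma). For both genes the luminal value was the higher one in 13 of 13 mice. Usp18, which removes ISG15 from proteins and restrains the type I receptor, was at 0.882 to 30.9 (median 13.9) in luminal and at 0 to 9.23 (median 2.67) in basal libraries, and its log2 fold change was 2.01 ± 0.34. The basal K8imTmG libraries held only 0 to 4 reads of Usp18 each, so the size of its difference is uncertain. The ubiquitin ligase Trim25 (0.85 ± 0.12) and Parp14 (0.42 ± 0.17) were called in the same direction, and Trim21 was not called.

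Isg15 itself, the ubiquitin-like modifier, went the other way. It was at 8.97 to 79.0 normalised counts in luminal libraries (median 22.9) and at 8.08 to 169 in basal libraries (median 51.2), with a log2 fold change of -1.14 ± 0.25 (SE, adjusted p = 2.52e-04 with limma). The lowest values of the lineages were alike and the upper ends were not. The difference varied with condition, from -2.99 on the log2 scale in virgin K8imTmG to 1.12 in virgin K8iΔRank, the only condition in which Isg15 was higher in luminal cells. In virgin K8imTmG mice all luminal libraries were Clec2d-low and all basal ones Clec2d-high, and in virgin K8iΔRank mice the reverse held. Lineage and side of the split therefore cannot be told apart within these conditions. Parp12, a mono-ADP-ribosyl transferase, was at 14.6 to 49.2 (median 27.8) in luminal and at 27.9 to 65.2 (median 39.8) in basal libraries, with a log2 fold change of -0.58 ± 0.14 (SE, adjusted p = 9.12e-04 with limma).

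Among the transcription factors, Irf2 and Irf9 were higher and Irf1 was lower in luminal cells, while Irf7 and Stat2 were not called. Irf1 was at 108 to 382 in luminal libraries (median 246) and at 205 to 921 in basal libraries (median 686). The basal value was higher in all 13 mice, and the log2 fold change was -1.30 ± 0.21 (SE, adjusted p = 6.22e-06 with limma). Irf9, the DNA-binding subunit of the complex at the ISRE, was at 138 ± 20.7 (SD, n = 15) in luminal and at 90.8 ± 27.3 (SD, n = 15) in basal libraries, and was higher in luminal cells in 13 of 13 mice. The log2 fold change was 0.63 ± 0.12 for Irf9 and 0.75 ± 0.15 for Irf2, which competes with Irf1 for its sites. Of the receptor subunits, Ifnar2 was higher in luminal cells by 0.42 ± 0.10 and Ifngr1 was lower, with -0.28 ± 0.10, whereas Ifnar1 and Ifngr2 were not called.

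Of the guanylate-binding proteins, which act on intracellular pathogens, Gbp2 and Gbp3 were higher in basal cells and Gbp7 was not called. Gbp2 was at 14.7 to 54.8 in luminal (median 25.5) and at 26.5 to 52.8 in basal libraries (median 37.7), with a log2 fold change of -0.54 ± 0.17 (SE, adjusted p = 0.00863 with limma). Gbp3 had a log2 fold change of -0.67 ± 0.25 and Gbp7 of -0.10 ± 0.22. Among the other induced genes, Lgals3bp, a secreted galectin-3 ligand, was at 43.6 to 105 in luminal (median 72.5) and at 21.7 to 45.0 in basal libraries (median 31.6), with a log2 fold change of 1.14 ± 0.12 (SE, adjusted p = 5.07e-09 with limma). The luminal value was higher in 13 of 13 mice. Ifi44 (1.41 ± 0.36) and Ifi30, a lysosomal thiol reductase (0.53 ± 0.20), were called in the same direction, and the remaining 6 genes of this role (Ifi27, Ifi35, Rtp4, Sp100, Tor3a and Xaf1) were not called.

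**Figure D2:**
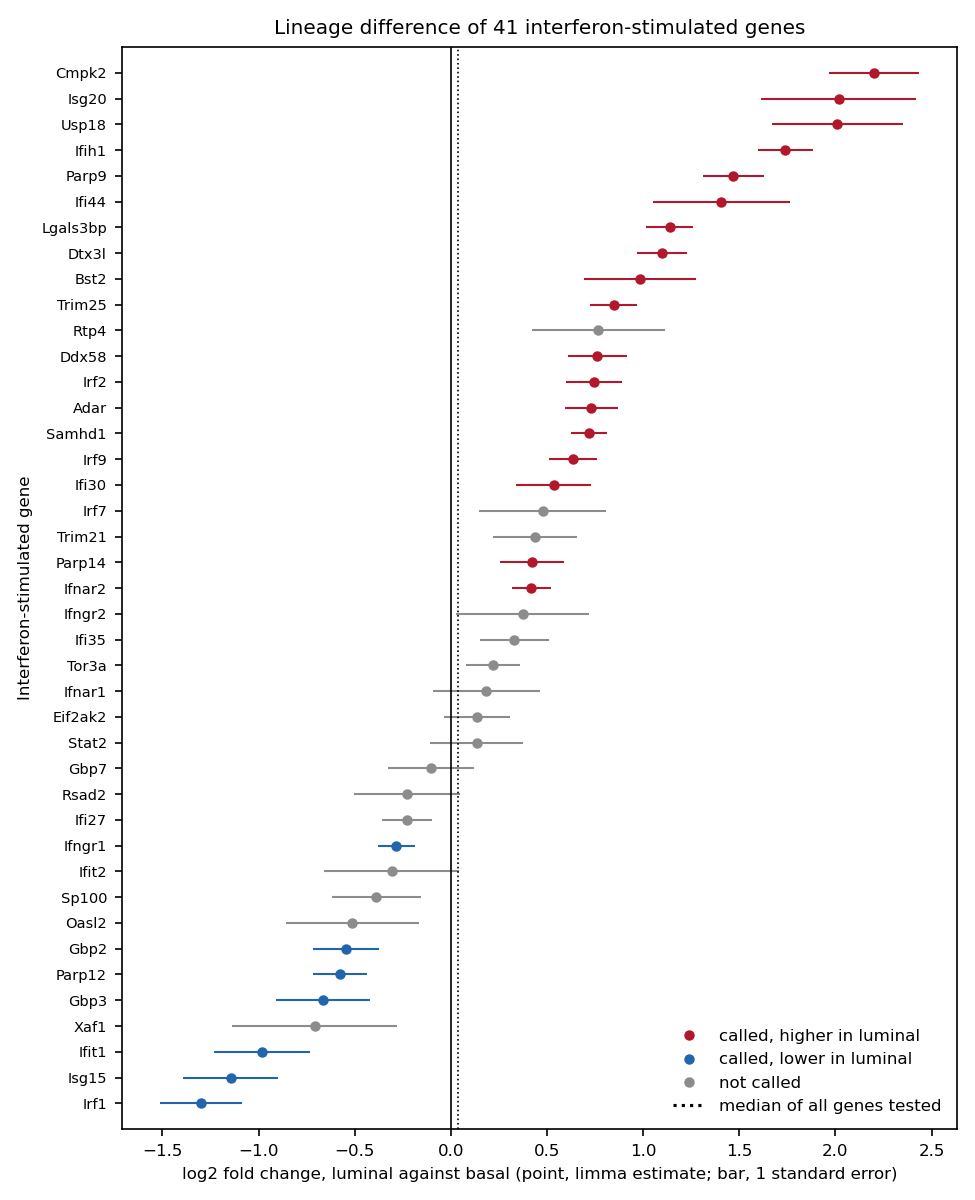
Log2 fold change of luminal against basal cells for each of the 41 interferon-stimulated genes (points, limma estimates over 30 libraries; bars, 1 standard error). The 18 genes called as higher in luminal cells run from Parp14 and Ifnar2 at 0.42 to Cmpk2 at 2.20, the 7 called as lower run from Ifngr1 at -0.28 to Irf1 at -1.30, and the dotted line marks the median of all genes tested at 0.035.

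The lineage difference held its sign in each of the 4 conditions (virgin or parous, K8imTmG or K8iΔRank) for 21 members, with 16 higher and 5 lower in luminal cells, and was mixed for 20. The 5 lower in all 4 conditions were Irf1, Ifit1, Oasl2, Parp12 and Gbp2. The mixed ones included Bst2, with differences of -0.84 in virgin K8imTmG, 3.66 in virgin K8iΔRank, 0.51 in parous K8imTmG and 0.60 in parous K8iΔRank on the log2 scale, and Eif2ak2, with -0.96, 1.97, -0.05 and -0.41. Also mixed were the called members Ddx58, Parp14 and Ifnar2, at -0.32, -0.60 and -0.09 in virgin K8iΔRank. Gbp3 was at 0.25 in parous K8imTmG and Ifngr1 at 0.07 in both parous conditions. In each virgin condition all luminal libraries lay on one side of the Clec2d split and all basal libraries on the other. Lineage and side therefore cannot be told apart in the virgin conditions. Depth, endothelial and leukocyte markers also differed between the lineages, as given above. The 6 fibroblast markers were called as lower in luminal cells too, with log2 fold changes from -0.93 for Dcn to -2.44 for Col3a1. The part of depth and of these markers in the differences was not tested. With the side of the Clec2d split as a covariate the count stayed at 25, again 18 and 7.

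**Figure D3:**
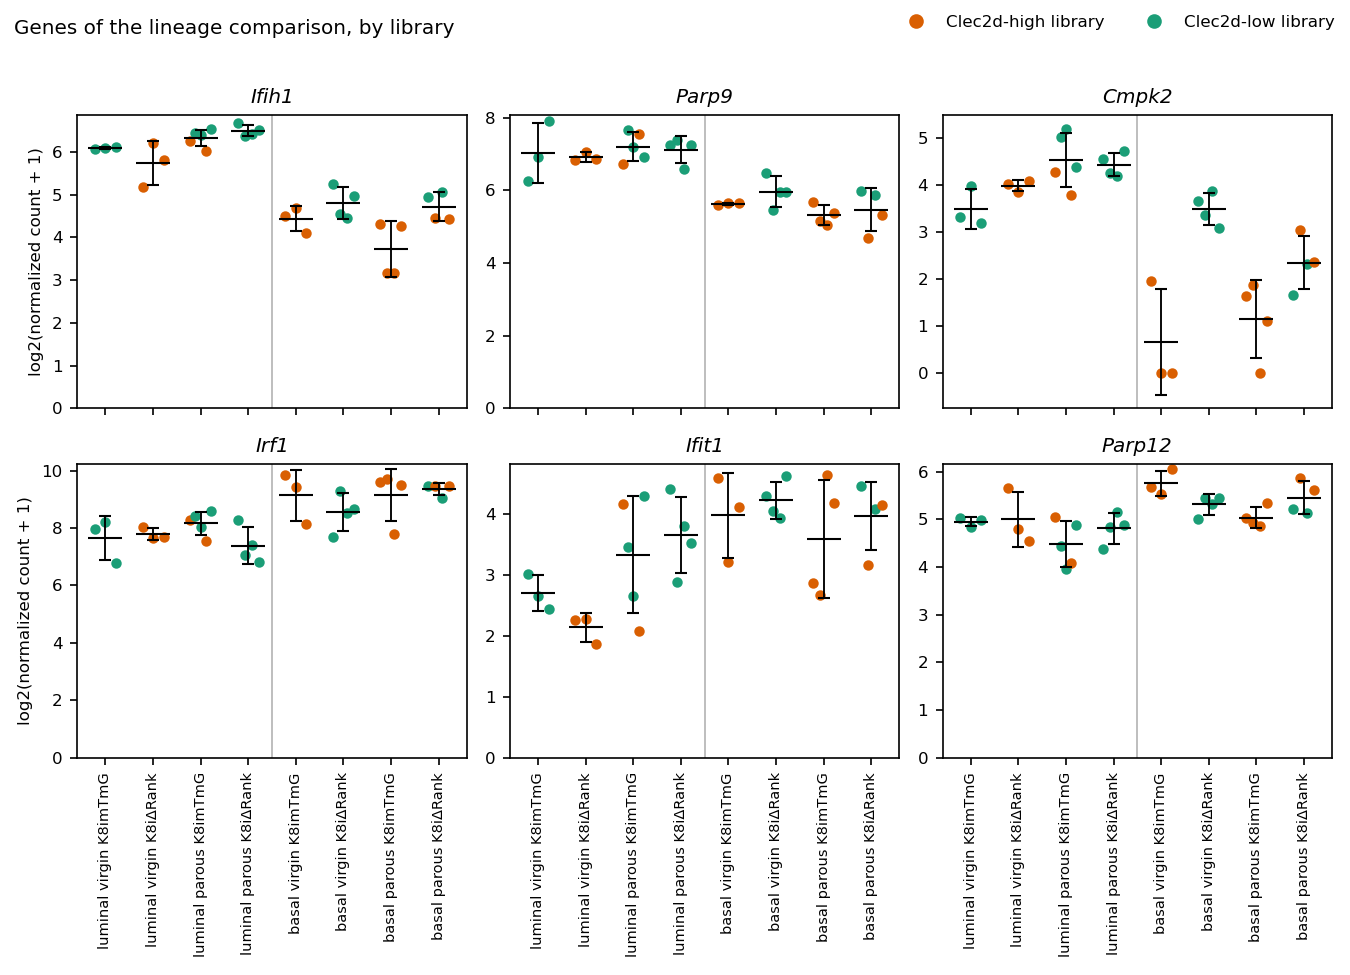
Values of Ifih1, Parp9, Cmpk2, Irf1, Ifit1 and Parp12 as log2(normalised count + 1) in every library, by group (left of the grey line, luminal; right, basal), coloured by side of the Clec2d split; horizontal bars are group means and error bars 1 SD (n = 3 to 5). The luminal groups sit higher for Ifih1, Parp9 and Cmpk2 and lower for Irf1, and for Cmpk2 the 7 basal K8imTmG libraries lie at 0 to 2.87 normalised counts.

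Neighbouring members did not always share a lineage difference. Rsad2 and Cmpk2 lie 12751 bases apart on chromosome 12 on opposite strands, and their log2 fold changes between lineages were -0.23 and 2.20. Dtx3l and Parp9 are transcribed in opposite directions on chromosome 16 from starts that overlap, and both were higher in luminal cells (1.10 and 1.47). The kit keeps strand, but whether the counting used it is not given in the sources used here. In the cluster of Gbp7, Gbp3 and Gbp2 on chromosome 3, the differences were -0.10, -0.67 and -0.54.

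Other genes of the pathway were read from fixed lists. Of 21 signalling genes, 16 were in the table and 10 were called between lineages, 7 as higher and 3 as lower in luminal cells, where 55.7% of all genes were called. The endosomal RNA sensor Tlr3 was higher in luminal cells by 1.66 ± 0.17 and the kinase Jak2 by 0.89 ± 0.14, whereas the feedback inhibitors Socs1 and Socs3 were lower, with -2.17 ± 0.45 and -2.04 ± 0.32. Of 61 further interferon-induced genes, 32 were in the table and 19 were called, 13 as higher and 6 as lower in luminal cells. The total was again near the share of all genes, with more genes higher than lower. Slfn2 (3.25 ± 0.31) and Trim30a (2.65 ± 0.35) were higher in luminal cells, and Rnase4 (-4.20 ± 0.16) and the viral entry inhibitor Ifitm3 (-2.40 ± 0.16) were lower.

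Luminal Rank targeting was compared first in virgin MGs. Most members did not pass the test, and Bst2 and Isg15 were higher in the K8iΔRank libraries. Of 36 members tested, 2 were called, against 0.984% of 10066 genes. Their median log2 fold change was -0.08, against -0.03 over all genes. Bst2 was at 53.2, 67.6 and 98.6 normalised counts in K8imTmG and at 247, 348 and 275 in K8iΔRank luminal cells, without overlap. The means were 73.1 ± 23.2 and 290 ± 52.1 (SD, n = 3 each), and the log2 fold change was 2.0 ± 0.29 (SE, adjusted p = 0.0246 with limma). Isg15 was at 8.97, 16.8 and 12.5 in K8imTmG and at 58.0, 34.6 and 47.6 in K8iΔRank, again without overlap. The means were 12.8 ± 3.91 and 46.7 ± 11.7 (SD, n = 3 each), and the log2 fold change was 1.80 ± 0.36 (SE, adjusted p = 0.0488 with limma).

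Groups did not overlap for 6 members as higher (Bst2, Eif2ak2, Adar, Isg15, Ifi27 and Rtp4) and for 7 as lower (Ifnar2, Ddx58, Rsad2, Parp14, Ifi35, Sp100 and Tor3a) in virgin K8iΔRank luminal cells, where 12.8% and 15.5% of all genes did so. Neither call stood in 1 fit of all 4 luminal groups or without the filter on low counts, where 0 members were called. Leaving out 1 mouse at a time gave 0 to 2 calls, 0 without K8imTmG mouse 533 or any K8iΔRank mouse, so that Isg15 was lost whichever mouse was left out and Bst2 stayed called only without K8imTmG mouse 531 or 538. All 3 K8imTmG libraries here were Clec2d-low and all 3 K8iΔRank libraries Clec2d-high. Basal markers summed to 31.5 to 46.1 in K8imTmG and to 51.9 to 175 in K8iΔRank libraries, with Acta2 at 1.56 ± 0.44 and the collagen genes Col1a1 at 1.45 ± 0.46 and Col3a1 at 2.47 ± 0.70, none of them called, and depth was 1862812 to 2422876 against 814455 to 1158036 reads. The part of these in the result was not tested. Of the other lists, 0 of 15 signalling genes tested passed, and of 29 further induced genes Trim12c rose (1.69 ± 0.30) and the proteasome activator Psme1 fell (-1.54 ± 0.22).

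In parous luminal cells, 0 of 40 members tested passed the test between genotypes, against 0.0991% of 10090 genes. DESeq2 on the recovered reads called 2 and edgeR 0, without the share of all genes given here. With limma, 4 members (10%) were at an unadjusted p below 0.05, against 19.9% of all genes. The median log2 fold change of the members was 0.13, against 0.04 over all genes. The 2 members of lowest p were Rsad2 and the ubiquitin ligase Trim21. Rsad2 was at 6.72, 22.8, 8.82, 3.20 and 12.98 in K8imTmG and at 44.9, 21.1, 27.3 and 39.7 in K8iΔRank, with a log2 fold change of 1.70 ± 0.46 (SE, adjusted p = 0.111 with limma). The lowest K8iΔRank value lay below the highest K8imTmG value, and in the 7 Clec2d-low libraries alone the log2 fold change was 1.15 ± 0.35. Trim21 was at 15.1, 15.6, 11.9, 15.98 and 12.1 in K8imTmG and at 9.51, 7.37, 6.13 and 6.46 in K8iΔRank, without overlap, with a log2 fold change of -0.86 ± 0.27 (SE, adjusted p = 0.135 with limma). Non-overlapping groups were found for Irf9 as higher and Trim21 as lower, against 5.49% and 4.24% of all genes.

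Parity was compared within each genotype. In K8imTmG luminal cells, 0 of 40 members passed the test, against 2.2% of 10279 genes, with 9 (22.5%) at an unadjusted limma p below 0.05, against 21.7% of all genes. The luminal keratins summed to 4725 to 7035 in virgin and to 2181 to 4037 in parous libraries, and their part was not tested. DESeq2 called 2 members and edgeR 0, and limma called 5 (2 higher and 3 lower in parous cells) when only the Clec2d-low libraries, 3 virgin and 3 parous, were compared. The share of all genes called in those fits is not given here, so these counts cannot be set against it. Ifi35 was at 44.9, 47.2 and 89.0 in virgin and at 37.0, 26.4, 23.4, 28.8 and 26.4 in parous cells, without overlap, with a log2 fold change of -1.01 ± 0.29 (SE, adjusted p = 0.0927 with limma). Rsad2 was at 28.8, 26.7 and 34.6 in virgin cells and in parous cells at the values given above, all lower, with a log2 fold change of -1.61 ± 0.51 (SE, adjusted p = 0.118 with limma). Groups did not overlap for 2 members as higher and 3 as lower, against 7.08% and 9.86% of all genes. Among the further induced genes, the GTPase gene Ifi47 rose with parity by 1.78 ± 0.37 (SE, adjusted p = 0.0418 with limma).

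In K8iΔRank luminal cells, 8 of 40 members changed with parity, 5 higher and 3 lower in parous cells, against 16% of 10249 genes called (8.25% higher and 7.78% lower). The share of members was near that of all genes. Bst2 was at 247, 348 and 275 in virgin and at 38.8, 45.7, 37.9 and 32.3 in parous cells, wide apart, with a log2 fold change of -2.87 ± 0.21 (SE, adjusted p = 1.34e-04 with limma). Eif2ak2, the RNA-activated kinase PKR, was at 63.1, 75.0 and 122 in virgin and at 33.9, 29.97, 32.9 and 28.3 in parous cells, with a log2 fold change of -1.39 ± 0.25 (SE, adjusted p = 0.00676 with limma). Isg15 was at 58.0, 34.6 and 47.6 in virgin and at 28.2, 10.3, 17.8 and 13.4 in parous cells, with a log2 fold change of -1.43 ± 0.34 (SE, adjusted p = 0.0204 with limma). For all 3 genes the groups did not overlap.

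The members that rose with parity in K8iΔRank luminal cells were Rsad2, Parp14, Ifnar2, Ifi44 and Gbp7. Rsad2 was at 7.57, 5.77 and 14.5 in virgin and at 44.9, 21.1, 27.3 and 39.7 in parous cells, with a log2 fold change of 1.77 ± 0.38 (SE, adjusted p = 0.0132 with limma). Parp14 was at 40.4, 38.5 and 40.95 in virgin and at 93.2, 76.6, 77.5 and 60.1 in parous cells, with a log2 fold change of 0.91 ± 0.21 (SE, adjusted p = 0.0178 with limma). Ifnar2 was at 68.1, 71.1 and 77.9 in virgin and at 135, 110, 96.4 and 141 in parous cells, with a log2 fold change of 0.71 ± 0.20 (SE, adjusted p = 0.0358 with limma). In all 3 the parous values lay above the virgin ones. Ifi44 was at 13.9, 7.69 and 9.25 in virgin and at 50.6, 16.7, 20.1 and 31.3 in parous cells (1.35 ± 0.40 by SE, adjusted p = 0.0413 with limma), and Gbp7 rose by 0.80 ± 0.24 (SE, adjusted p = 0.0442 with limma).

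Groups did not overlap for 12 members as higher and 4 as lower in parous K8iΔRank luminal cells, against 16% and 13.7% of all genes. In 1 fit of all 4 luminal groups a single member, Bst2, was called, and leaving out 1 mouse gave 4 to 9 calls, with 4 without virgin mouse 821 or 825 and without parous mouse 787 or 830. All virgin libraries of this comparison were Clec2d-high and all parous ones Clec2d-low. The sum of the fibroblast markers also moved with it, at 686 to 847 in virgin and 166 to 400 in parous libraries. Most of this sum was the fibroblast gene Dcn, at 571 to 802 and 121 to 325, which was called (-1.89 ± 0.30). Col1a1 (-0.49 ± 0.49) and Col3a1 (-1.19 ± 0.60) were not called. The basal markers summed to 51.9 to 175 and 20.1 to 36.2, with Acta2 (-1.93 ± 0.44) called. Depth was 814455 to 1158036 reads in virgin and 2214318 to 3130419 in parous libraries, and the part of depth and markers was not tested. Of 15 signalling genes tested, 4 passed. Sting1, the adaptor of DNA sensing, rose by 1.30 ± 0.23, the transcription factor Irf3 by 1.15 ± 0.25 and the phosphatase Ptpn2 by 0.86 ± 0.23, whereas Socs3 fell by 1.96 ± 0.58. Of 29 further induced genes, 7 rose, among them the GTPase genes Ifi47 (2.32 ± 0.47) and Igtp (1.28 ± 0.29) and Trim30a (1.2 ± 0.28), and 2 fell, Iigp1 (-0.76 ± 0.23) and Trim12c (-1.06 ± 0.29).

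**Figure D4:**
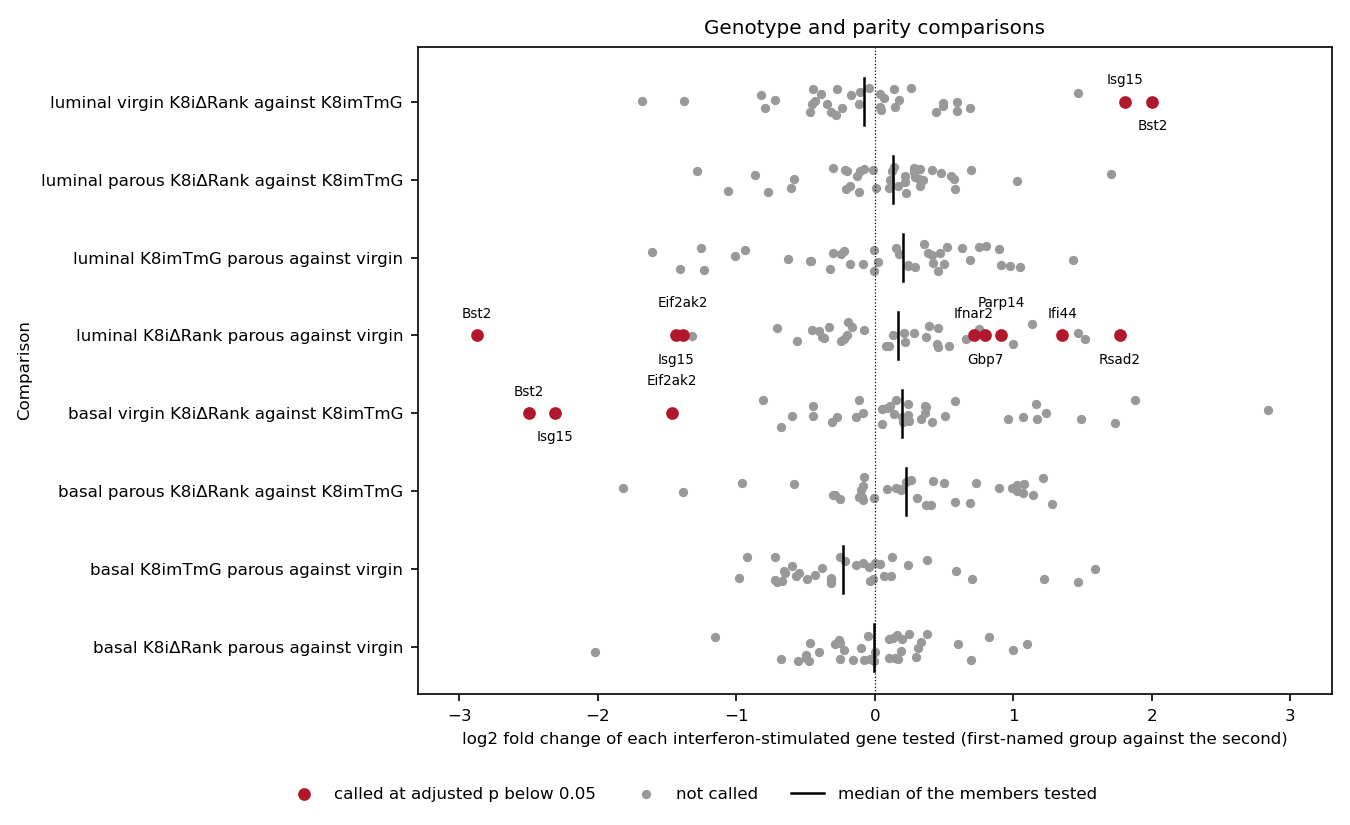
Log2 fold changes of the members tested in each of the 8 comparisons of genotype or parity (points, 1 per gene, scattered vertically for legibility), with called members in red and named and the median as a black bar. Calls fell in 3 of the 8 rows, which are the 3 whose groups lie on opposite sides of the Clec2d split, and Bst2, Isg15 and, in 2 of them, Eif2ak2 were among the called members.

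In basal cells of virgin mice, Bst2, Eif2ak2 and Isg15 were lower in the K8iΔRank libraries. For Bst2 and Isg15 this was opposite in direction to virgin luminal cells, a difference that was not itself tested. These were the 3 of 40 members called, against 8.99% of 10616 genes (4.27% as higher and 4.72% as lower). The median log2 fold change of the members was 0.20, against 0.06 over all genes. Bst2 was at 157, 161 and 81.5 in K8imTmG and at 28.9, 16.7, 28.4 and 16.1 in K8iΔRank basal cells, with a log2 fold change of -2.5 ± 0.35 (SE, adjusted p = 0.00625 with limma). Eif2ak2 was at 77.6, 66.1 and 38.0 against 27.7, 19.8, 21.0 and 15.0, with a log2 fold change of -1.46 ± 0.35 (SE, adjusted p = 0.0337 with limma). Isg15 was at 157, 169 and 43.5 against 8.08, 30.4, 29.1 and 23.6, with a log2 fold change of -2.31 ± 0.57 (SE, adjusted p = 0.0360 with limma). The groups did not overlap for these 3 and for Parp12 and Ifi27 as lower and for Ifngr1, Irf2 and Cmpk2 as higher, against 13.4% and 14.9% of all genes, and the lowest K8imTmG value of Bst2, Eif2ak2 and Isg15 was that of the shallowest library, mouse 568.

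Leaving out 1 mouse gave 1 to 3 calls for this comparison, with 1 without K8imTmG mouse 538 or K8iΔRank mouse 825 and Bst2 called each time, and 1 fit of all 4 basal groups gave 5 (2 higher and 3 lower). For these fits too, the share of all genes called is not given here. All K8imTmG libraries here were Clec2d-high and all K8iΔRank libraries Clec2d-low. Basal cells of K8iΔRank mice keep Rank, and the leukocyte markers were at 65.2 to 149 in K8imTmG and 17.4 to 73.9 in K8iΔRank libraries, while depth was 340445 to 1172427 and 1200781 to 2104379 reads, and the part of either was not tested. Of the 16 signalling genes tested, the kinase Tbk1 fell by 1.06 ± 0.25, and 0 of the further induced genes passed.

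In the remaining 3 basal comparisons, 0 members passed the limma test. Between genotypes in parous basal cells, 37 members were tested against a background of 0.906% of 10592 genes called, and 10 (27.0%) were at an unadjusted p below 0.05, against 22.6% of all genes. Basal markers summed to 7607 to 8548 in K8imTmG and to 5043 to 6518 in K8iΔRank libraries, depth was 450064 to 1365008 and 1844364 to 2996649 reads, and their part was not tested. DESeq2 called 5 of the members (3 higher and 2 lower), edgeR 0, and limma 7 when the library of parous K8iΔRank mouse 794 was left out. For those fits the share of all genes called is not given here. Gbp7 was at 31.4, 18.7, 19.9 and 20.5 in K8imTmG and at 87.1, 45.4, 57.7 and 33.6 in K8iΔRank, with a log2 fold change of 1.21 ± 0.31 (SE, adjusted p = 0.0654 with limma). The nuclear body protein gene Sp100 was at 8.37, 13.4, 11.9 and 9.10 against 29.6, 19.9, 42.7 and 20.7, with a log2 fold change of 1.28 ± 0.34 (SE, adjusted p = 0.0760 with limma). Groups did not overlap for either gene, nor for 3 further members as higher and 2 as lower, against 5.96% and 6.07% of all genes. In the 6 Clec2d-high libraries alone, 4 K8imTmG and 2 K8iΔRank, the log2 fold changes were 0.79 ± 0.36 for Gbp7 and 0.89 ± 0.49 for Sp100.

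With parity in K8imTmG basal cells, where all 7 libraries were Clec2d-high, 0 of 36 members passed with limma, DESeq2 or edgeR, against 0% of 10538 genes with limma, and 3 (8.33%) were at an unadjusted p below 0.05, against 9.20% of all genes. The endothelial markers summed to 158 to 429 in virgin and to 47.8 to 119 in parous libraries, and their part was not tested. Bst2 was at 157, 161 and 81.5 in virgin and at 85.8, 80.2, 55.7 and 51.2 in parous cells, with a log2 fold change of -0.92 ± 0.30 (SE, adjusted p = 0.405 with limma). Parp12 was at 50.3, 45.5 and 65.2 against 31.4, 29.4, 27.9 and 39.8, with -0.72 ± 0.30 (SE, adjusted p = 0.492 with limma). Groups did not overlap for 1 member as higher and 2 as lower, against 4.31% and 5.04% of all genes. With parity in K8iΔRank basal cells, 0 of 39 members passed, against 0% of 10525 genes, and 8 (20.5%) were at an unadjusted p below 0.05, against 9.84% of all genes, with 1 call by DESeq2 and 0 by edgeR. Rsad2 was at 136, 44.0, 105 and 24.7 in virgin and at 18.0, 14.3, 13.2 and 14.0 in parous cells, without overlap, with a log2 fold change of -2.02 ± 0.46 (SE, adjusted p = 0.284 with limma). Gbp2 was at 26.5, 33.5, 28.4 and 30.1 against 50.6, 52.6, 38.7 and 52.8, also without overlap, with 0.69 ± 0.20 (SE, adjusted p = 0.420 with limma). The endothelial markers moved with this comparison, at 814, 382, 722 and 191 in the same virgin libraries, an order that Rsad2 shared, and at 83.2 to 139 in parous ones, with Kdr at -2.58 ± 0.42 and Pecam1 at -1.49 ± 0.26, neither called, and their part was not tested. In all, groups did not overlap for 2 members as higher and 5 as lower, against 2.76% and 3.34% of all genes.

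The effect of genotype was next compared between virgin and parous cells by an interaction term. In luminal cells 4 of 40 members passed, 1 higher and 3 lower, against 12.9% of 10262 genes (7.17% higher and 5.75% lower). The difference of differences was 3.38 ± 0.67 (SE, adjusted p = 0.0108 with limma) for Rsad2, -2.08 ± 0.49 (SE, adjusted p = 0.0189 with limma) for Eif2ak2, -2.86 ± 0.68 (SE, adjusted p = 0.0190 with limma) for Isg15 and -3.29 ± 0.92 (SE, adjusted p = 0.0326 with limma) for Bst2. These comparisons share libraries with those above. Leaving out 1 mouse gave 1 to 5 calls, with 1 without virgin K8imTmG mouse 538 and 2 without virgin K8iΔRank mouse 821. Of the other lists, 4 of 15 signalling genes passed, among them Sting1 at 1.97 ± 0.40 and Irf3 at 1.49 ± 0.39, and 3 of 30 further induced genes, among them Psme1 at 1.82 ± 0.29. With the side of the Clec2d split as a covariate 0 members passed, and the values became 1.44 for Rsad2, -0.23 for Eif2ak2, -0.45 for Isg15 and 0.87 for Bst2, of opposite sign. The side term of that fit was estimated from the parous K8imTmG group alone, the only luminal group with both sides. It was carried over from there to the virgin groups, so the fit cannot decide what part the split has. In basal cells, 0 of 38 members passed, against 0% of 10607 genes, with 2 at an unadjusted limma p below 0.05 (5.26%, against 10.2% of all genes) and 0 calls by DESeq2 or edgeR. These were Eif2ak2 at 1.21 ± 0.46 (SE, adjusted p = 0.418 with limma) and Parp12 at 0.86 ± 0.35 (SE, adjusted p = 0.447 with limma).

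The members were finally set out by side of the Clec2d split. Eif2ak2, alone of the 41 members, separated the sides without overlap. It was at 38.0 to 122 normalised counts in the 14 Clec2d-high libraries (median 63.8) and at 15.0 to 36.6 in the 16 Clec2d-low libraries (median 29.4). Bst2 was at 34.7 to 348 (median 121) and 12.9 to 98.6 (median 35.4), and Isg15 at 34.6 to 169 (median 66.5) and 8.08 to 45.9 (median 20.4). Within luminal cells Bst2 was at 247 to 348 in Clec2d-high and at 32.3 to 98.6 in Clec2d-low libraries, and within basal cells at 34.7 to 161 and at 12.9 to 28.9, without overlap in either lineage. The share of all genes that separate the sides, in all libraries or within a lineage, was not counted. Whether such separation is unusual therefore cannot be read from these values. Inside the parous K8imTmG luminal group, Bst2 was at 312 and 348 in the 2 Clec2d-high libraries and at 43.6, 48.5 and 32.9 in the 3 Clec2d-low libraries, a difference of 2.97 on the log2 scale. Inside the parous K8iΔRank basal group it was at 59.8 and 34.7 against 12.9 and 14.1, a difference of 1.69. The same differences were 1.32 and 0.99 for Eif2ak2 and 1.73 and 0.56 for Isg15. Of the 41 members, 1 (Bst2, 2.44%) differed by more than 1 in both groups, as did 4.60% of all genes. A difference below -1 in both was found for 0 members, against 2.12% of all genes. These differences were not tested, and sides were set by Clec2d alone. In the parous K8imTmG luminal group the high libraries held 943438 and 534445 reads and the low ones 2988541, 2783391 and 2781750. In the parous K8iΔRank basal group these were 1844364 and 2677273 against 2996649 and 2793961. The part of depth was not tested.

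**Figure D5:**
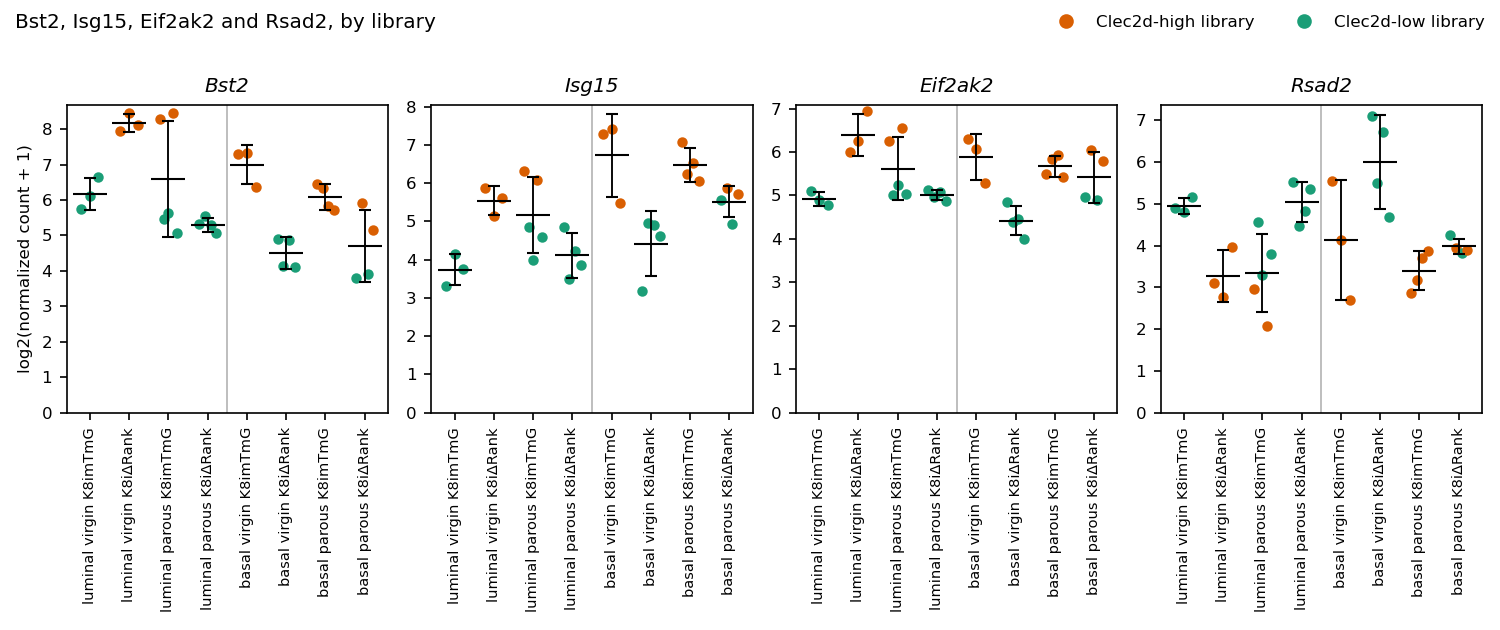
Values of Bst2, Isg15, Eif2ak2 and Rsad2 as log2(normalised count + 1) in every library, by group and coloured by side of the Clec2d split; horizontal bars are group means and error bars 1 SD (n = 3 to 5). For Eif2ak2 every Clec2d-high library (38.0 to 122 normalised counts) lies above every Clec2d-low library (15.0 to 36.6), and in the 2 groups with both colours, parous K8imTmG luminal and parous K8iΔRank basal, the high libraries of Bst2 lie above the low ones.

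Rsad2 lay on the other side, with a median of 9.98 normalised counts in Clec2d-high and 27.0 in Clec2d-low libraries (3.20 to 46.0 and 8.82 to 136). Inside the parous K8imTmG luminal group it was at 6.72 and 3.20 in the high libraries and at 22.8, 8.82 and 12.98 in the low ones, and inside the parous K8iΔRank basal group all 4 libraries lay between 13.2 and 18.0. Parp14 was at 23.0 to 53.1 in Clec2d-high and 42.2 to 111 in Clec2d-low libraries, and the high libraries were lower in both groups that held both sides, by 1.03 and 0.85 on the log2 scale. Gbp7 differed by -1.16 and -0.84 in the same groups.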

How the data were processed

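Expression was measured by 3′ mRNA sequencing in 30 libraries of sorted luminal and basal cells, grouped by lineage, stage and genotype of the labels. The authors trimmed the reads, removed duplicates by 6-nt molecular identifiers with UMI-tools, aligned to GRCm39 with Bowtie2, counted on Gencode vM26 and deposited signal values, namely gene counts divided by DESeq2 size factors, after leaving out genes that did not exceed 10 in 25% of samples. Dividing each column by its smallest step gave whole numbers (within 0.01) for 100% of values, so reads could be recovered.

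Comparisons used limma 3.58.1 on log2(normalised count + 1) with a mean-variance trend, for genes exceeding 10 in 25% or more of the libraries in the fit, and p-values were adjusted over all genes by Benjamini-Hochberg. Two-group comparisons were fitted alone, and lineage over all 30 libraries as the mean of 4 luminal against 4 basal groups. Alternatives were a pseudocount of 4, no filter, DESeq2 1.42.0 and edgeR 4.0.16 (quasi-likelihood, TMM) on recovered reads, 1 fit per lineage, one side of the Clec2d split or the side as a covariate, the mouse as a replicate block, and each mouse left out. The fits were tested on simulated counts. Luminal and basal libraries of one mouse share its number, and the consensus correlation of such pairs was 0.0624.

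Members and lists were chosen with earlier results of these data known. Given in full were members called in a comparison other than that of lineages (up to 4 of lowest p per direction), the 2 of lowest p where fewer than 2 were called, and for lineage the 5 of lowest adjusted p per direction. All members may be named by role. Coordinates and promoters are those of GENCODE vM39 on GRCm39. R 4.3.3 and Python 3.11.15 were used. Each library is 1 mouse, so p-values cover the spread between mice, and depth per library limits low values. The paper gives a wide range of RNA integrity over the samples. Integrity of single libraries was not used here, and its part was not tested. Ddx58 is named Rigi in the annotation. One gene of the signalling list is not reported here.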

Additional observations from a re-analysis of the deposited data

Results flagged for a closer look

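In luminal cells the difference between genotypes was not the same in virgin and parous MGs for 4 members, by the interaction term (limma). The difference of differences was 3.38 for Rsad2 (limma adjusted p = 0.0108), -2.08 for Eif2ak2 (limma adjusted p = 0.0189), -2.86 for Isg15 (limma adjusted p = 0.0190) and -3.29 for Bst2 (limma adjusted p = 0.0326). These were 4 of 40 members tested, against 12.9% of all genes. The virgin groups lie on opposite sides of the Clec2d split, and with the side as a covariate 0 members passed, at 1.44 for Rsad2, -0.23 for Eif2ak2, -0.45 for Isg15 and 0.87 for Bst2. The side term in that fit rests on the parous K8imTmG group alone and is carried over from there to the virgin groups.

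In 4 of 100 sets of 4 or 5 libraries, over 20 named members, 1 library stood apart from its group, where chance alone gives about 5%. Gbp7 was at 31.4 in basal parous K8imTmG mouse 532 against 18.7 to 20.5 in the other 3 libraries. Gbp2 and Irf1 were at 38.7 and 533 in basal parous K8iΔRank mouse 798, against 50.6 to 52.8 and 700 to 711. Lgals3bp was at 45.0 in basal virgin K8iΔRank mouse 820 against 29.1 to 31.6.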

How the results depend on the processing

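The lineage count of 25 members lay between 24 and 27 under every alternative tried and at 24 to 26 with 1 mouse left out, and the replicate block of the mouse left it at 25 (18 higher, 7 lower) and changed no call of a named gene there. The other comparisons have no mouse in both groups, so no pairing applied to them.

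Counts of called members that moved were, for genotype in virgin luminal cells, 0 without the filter and 0 in 1 fit of 4 groups, and 0 to 2 with 1 mouse left out. For genotype in parous luminal cells DESeq2 called 2. For parity in K8imTmG luminal cells the counts were 2 with DESeq2, 2 in 1 fit of 4 groups, 5 in Clec2d-low libraries, and 0 to 1 with 1 mouse left out. For parity in K8iΔRank luminal cells they were 1 in 1 fit and 4 to 9 with 1 mouse left out, and for genotype in virgin basal cells 5 and 1 to 3. For genotype in parous basal cells DESeq2 called 5 and leaving out 1 mouse gave 0 to 7, with 7 without parous K8iΔRank mouse 794, and for parity in K8iΔRank basal cells DESeq2 called 1. For the luminal interaction the count was 0 with the side as a covariate and 1 to 5 with 1 mouse left out, and Bst2 turned from -3.29 to 0.87. The share of all genes called in each of these alternative fits is not given here or above. The cause of the moves was not tested. The joint fits pool the spread of 4 groups. In the luminal interaction fit the side term rests on the parous K8imTmG group alone, the only luminal group with both sides.

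Of the named genes under alternatives other than leaving out a mouse, 185 values kept their call, 15 lost it, 7 gained it and 1 reversed. Depth limits members at few reads in the shallow basal virgin K8imTmG libraries.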
